A study of Caenorhabditis elegans with 9 samples.

Results

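The X chromosome held 955 of the 5165 regions that the authors' combined lists give for EGL-43 and FOS-1 in NanoDam of Caenorhabditis elegans dopaminergic neurons. Of these, 445 were EGL-43 regions and 510 were FOS-1 regions. They were taken by position alone, as every region on X in either combined list, together with the 1157 X peaks among the 6043 nuclear peaks of the 6 replicate lists from which the regions were merged. The other 4208 nuclear regions lay on the 5 autosomes and serve as the background, and 2 regions were mitochondrial.

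In NanoDam a nanobody against GFP is fused to the Dam methylase, which methylates the adenine of GATC near wherever a GFP-tagged protein sits on DNA. All groups carried the fusion as a single-copy insertion (allele bmd261) driven by the promoter of dat-1, the dopamine transporter gene, and all were L3 larvae harvested 24 h after feeding began at 25 °C. The control (strain TV27654, genotype bmd261) had the fusion and no tagged factor. The EGL-43 group (strain TV27655) added the endogenous GFP-tagged allele egl-43(wy1449), and the FOS-1 group (strain TV27857) added fos-1(wy1539). Each group had 3 libraries, numbered 1 to 3, from about 5000 worms each. In every group the food bacteria lacked Dam over 3 worm generations. Each library had 4 first and 19 further PCR cycles. DNA came from whole animals, so the cells sampled are those in which the dat-1 promoter is active. The labels do not say whether replicates were separate cultures, and the spread between them may be technical. The peak lists carry no gene names, so cell identity was not checked against markers.

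EGL-43 is a zinc finger transcription factor related to mammalian MECOM (EVI1), and FOS-1 is the worm's Fos-family basic leucine zipper factor, which binds DNA as a dimer. Worm autosomes have gene-dense centres with little recombination and repeat-rich arms, whereas genes are spread more evenly along X. In hermaphrodites both X chromosomes are bound by the dosage compensation complex, which lowers their transcription to match the single X of males.

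A list of peaks compared 1 tagged library with the control of equal number. Lists of equal number, 1 from each factor, therefore share a control, and the 6 lists are not independent. No read counts were used here, so sequencing depth is unknown and counting errors cannot be given. The authors' combined regions on X equalled the merge of overlapping or touching peaks of a factor's 3 lists for all 445 EGL-43 and all 510 FOS-1 regions. Comparisons of X with the autosomes were made within each list and tested with a two-sided exact sign-flip permutation test over the 3 lists of a factor, which cannot give a p-value below 0.25. The factors were compared with a two-sided exact permutation test of 3 lists against 3, whose smallest p-value is 0.1. Over 28 such comparisons with all peaks and lists, the lowest Benjamini-Hochberg adjusted p-value of these permutation tests was 0.4375, so none passed 0.05.

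X peaks were slightly denser than autosomal peaks in every list. The EGL-43 lists held 218, 204 and 176 X peaks, which is 12.3, 11.5 and 9.93 peaks per Mb against 10.8, 10.6 and 8.88 on the autosomes. The FOS-1 lists held 198, 213 and 148 X peaks, or 11.2, 12.0 and 8.35 peaks per Mb against 10.5, 10.1 and 8.30. List 3 was the sparsest on X for both factors, and in FOS-1 list 3 X and autosomes were nearly level. Relative to the autosomes, X density was 1.11 ± 0.03 times as high in the EGL-43 lists and 1.09 ± 0.09 times in the FOS-1 lists (SD, n = 3 each; exact sign-flip permutation test, p = 0.25 for each). This excess was not seen among the peaks with the lowest false discovery rate (FDR): at an FDR under 0.001 the ratio was 1.00 in the EGL-43 lists and 1.01 in the FOS-1 lists.

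**Figure D1:**
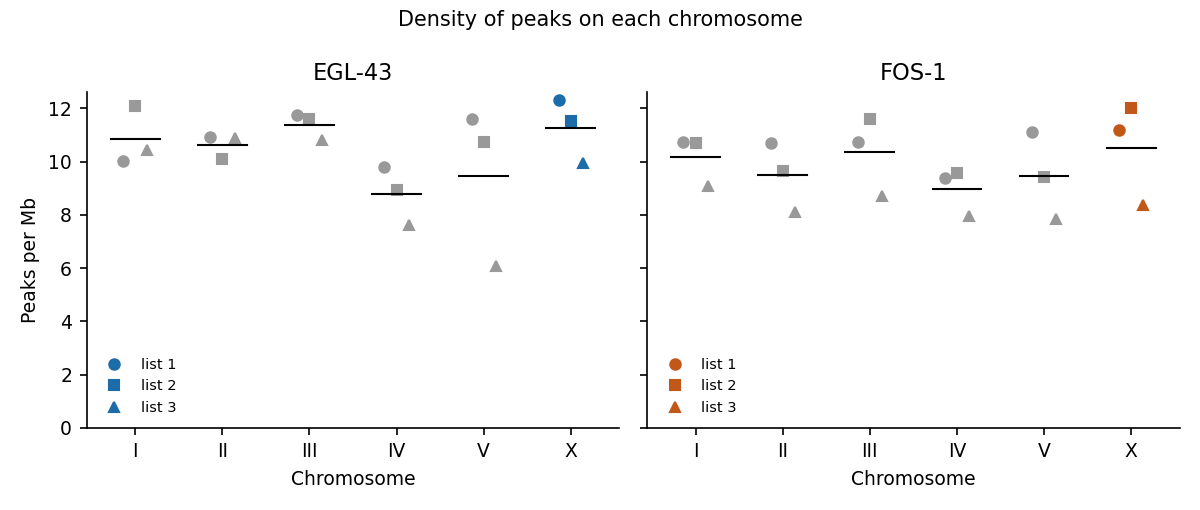
Peaks per Mb (vertical axis) on each of the 6 nuclear chromosomes for EGL-43 (left) and FOS-1 (right). Each point is 1 list and the bar is the mean of 3 lists; X is coloured. X means are 11.3 and 10.5 peaks per Mb, and the X points lie within or just above the range of the autosomes.

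Among the 6 chromosomes X was the densest in EGL-43 list 1 and in FOS-1 lists 1 and 2. It ranked 3 of 6 in EGL-43 list 2 and in FOS-1 list 3, and 4 of 6 in EGL-43 list 3. The lead over the densest autosome was small where it existed: in FOS-1 list 1 X had 11.2 peaks per Mb and chromosome V had 11.1. Combined regions were at 25.1 per Mb on X for EGL-43 against 24.6 on the autosomes, and at 28.8 per Mb for FOS-1 against 26.4.

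The factors overlapped in how many peaks they had on X. EGL-43 had 11.3 ± 1.2 X peaks per Mb and FOS-1 10.5 ± 1.9 (SD, n = 3 each), a difference of 0.734 that is smaller than the spread of FOS-1 (exact permutation test, p = 0.6). It was 1.35 without replicate 2, 0.31 without replicate 3 and -0.0564 at an FDR under 0.001. EGL-43 peaks covered 2.19%, 2.04% and 1.46% of X, and FOS-1 peaks covered 1.98%, 1.91% and 2.17%. The values of the factors overlapped, with EGL-43 list 3 the lowest of the 6, and the mean difference of -0.119 percentage points (exact permutation test, p = 0.9) became 0.171 without replicate 3.

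Peaks lay less often in the middle of X than in the middle of the autosomes in every list. Each chromosome was cut into 3 parts of equal length. The middle part of X held 29.4%, 33.3% and 33.0% of the X peaks of the EGL-43 lists, a mean of 31.9% ± 2.2 (SD, n = 3). On the autosomes the middle parts held 46.1%, 38.0% and 46.2%, a mean of 43.4% ± 4.7. The EGL-43 ranges did not overlap, and the difference was -11.6 ± 6.2 percentage points (SD, n = 3; exact sign-flip permutation test, p = 0.25).

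The same direction held for FOS-1. The middle part of X held 28.3%, 34.3% and 35.1% of X peaks against 34.6%, 42.8% and 43.9% on the autosomes. The share on X was the lower one within each list, with a difference of -7.87 ± 1.31 percentage points (SD, n = 3; exact sign-flip permutation test, p = 0.25), although the highest X value exceeded the lowest autosomal one. X had the lowest share of the 6 chromosomes in all 3 EGL-43 lists and in FOS-1 list 3. In FOS-1 list 1 chromosome V was lower at 27.6%, and in FOS-1 list 2 chromosome III was lower at 33.1%. The deficit of EGL-43 minus that of FOS-1 was -3.69 percentage points (exact permutation test of 3 lists against 3, p = 0.4). It kept its sign at an FDR under 0.001, at -10.4 for EGL-43 and -8.95 for FOS-1.

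**Figure D2:**
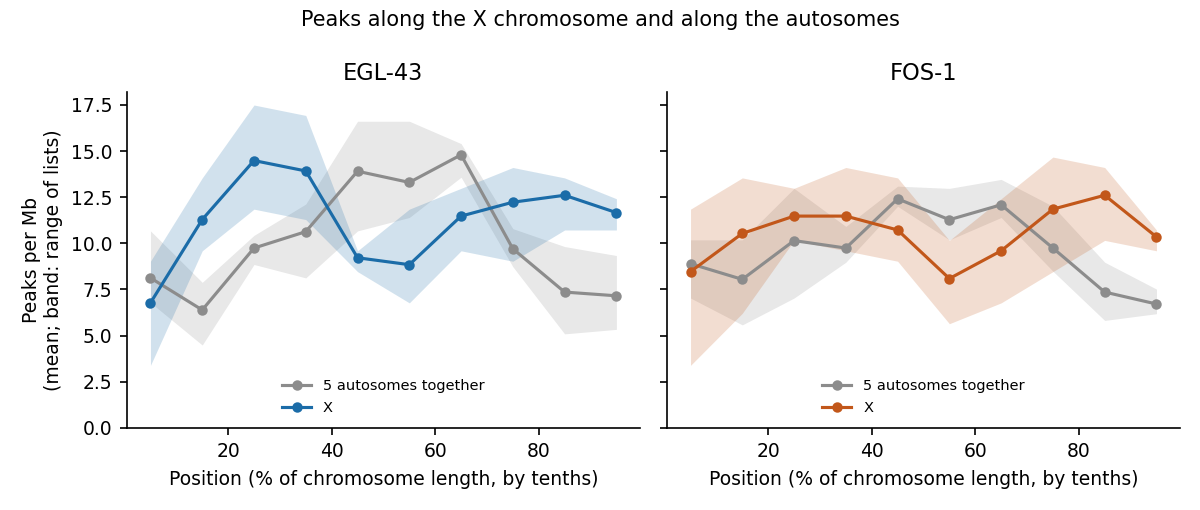
Peaks per Mb (vertical axis) in 10 equal parts of the chromosome, as percent of its length (horizontal axis), for EGL-43 (left) and FOS-1 (right). Lines are means of 3 lists, bands run from the lowest to the highest list, X is coloured and the 5 autosomes together are grey. The autosomes peak in the middle, up to 14.8 peaks per Mb for EGL-43, while X dips there.

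Densities show what the shares are made of. In the middle part EGL-43 had 10.8, 11.5 and 9.82 peaks per Mb on X against 14.99, 12.1 and 12.3 on the autosomes, a ratio of 0.824 ± 0.116 (SD, n = 3). In the outer parts EGL-43 had 13.04, 11.5 and 9.99 on X against 8.75, 9.88 and 7.17, a ratio of 1.35 ± 0.17. X was thus the sparser in the middle and the denser outside it in each EGL-43 list.

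For FOS-1 the middle part held 9.48, 12.4 and 8.81 peaks per Mb on X against 10.95, 12.95 and 10.9, a ratio of 0.875 ± 0.074 (SD, n = 3). The outer parts held 12.0, 11.9 and 8.13 against 10.3, 8.66 and 6.99, a ratio of 1.23 ± 0.12. All 4 ratios kept their direction in 3 of 3 lists (exact sign-flip permutation test, p = 0.25 each). They also kept it at an FDR under 0.001, where the middle ratios were 0.772 and 0.795 and the outer ones 1.20 and 1.17 for EGL-43 and FOS-1. The ends of X were not alike for FOS-1: the ratio was 1.39 ± 0.21 in the last part of X, where all 3 lists were above 1, and 1.08 ± 0.09 in the first part, where FOS-1 list 3 was at 0.982.

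**Figure D3:**
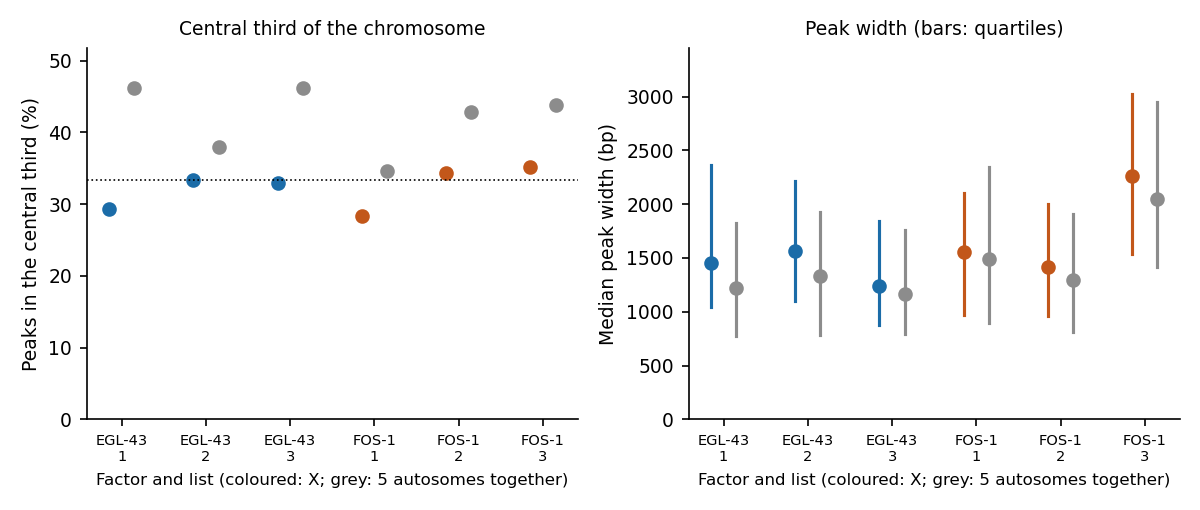
Left, percent of peaks in the middle of 3 equal parts of the chromosome, with a dotted line at the share that an even spread would give. Right, median peak width in bp, with bars from the lower to the upper quartile. Each pair of points is 1 list, X coloured and the 5 autosomes together grey: X is the lower point on the left and the higher point on the right in each of the 6 lists.

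In 10 equal parts of X, mean EGL-43 density ran from 6.77 peaks per Mb in the first part to 14.5 in part 3, and the coefficient of variation over the parts was 0.211. FOS-1 ran from 8.09 in part 6 to 12.6 in part 9, with a coefficient of variation of 0.138. The profiles of both factors were flatter on X than on the 5 autosomes, where the coefficients were 0.297 and 0.2002. These are descriptions, since parts of a chromosome share the same libraries.

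At a finer scale, bins of 1 Mb showed where X peaks crowded. The richest EGL-43 bin, chrX:4000001-5000000, held 18, 16 and 15 peaks in lists 1 to 3, a mean of 16.3 ± 1.5 (SD, n = 3). FOS-1 had 14, 10 and 11 there. The poorest EGL-43 bin, chrX:1000001-2000000, held 8, 6 and 2, and here FOS-1 was higher, at 14, 8 and 7.

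The richest FOS-1 bin, chrX:15000001-16000000, held 18, 18 and 11 FOS-1 peaks, and it was also among the fuller EGL-43 bins, at 17, 10 and 17. The poorest FOS-1 bin, chrX:9000001-10000000, held 7, 6 and 6, and EGL-43 was also sparse there with 8, 8 and 6. Over the 17 whole bins the factors' mean counts had a Pearson r of 0.597, given as a description because the factors share control libraries and the bins share lists. Between single lists r ran from 0.0817 to 0.596.

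Combined regions repeated the flat profile of X. The 445 EGL-43 regions fell 153, 141 and 151 into the 3 parts, so that the middle held 31.7% against 41.3% on the autosomes. The 510 FOS-1 regions fell 161, 169 and 180, with 33.1% in the middle against 39.7%. The gap to the autosomes was wider for regions with peaks in 2 or more lists. Their middle share was 30.9% of 94 EGL-43 regions on X against 51.3% on the autosomes, and 24.4% of 41 FOS-1 regions against 47.5%.

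The median distance between neighbouring regions was 26.3 kb on X and 22.9 kb on the autosomes for EGL-43. For FOS-1 it was 21.8 kb and 21.5 kb. The longest stretch of X without a region was 319 kb for EGL-43. The longest stretches of single autosomes ran from 256 kb on V to 449 kb on IV, so X lay among them. The longest FOS-1 stretch was 221 kb on X, slightly below the autosomal values of 228 kb on V to 362 kb on II.

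The median X peak was wider than the median autosomal peak in each list. Median widths on X were 1452, 1562 and 1236 bp in the EGL-43 lists against 1223, 1330.5 and 1168.5 bp on the autosomes, a difference of 176 ± 94 bp (SD, n = 3). In the FOS-1 lists they were 1555.5, 1418 and 2261.5 bp against 1491, 1295 and 2046 bp, a difference of 134 ± 76 bp. The X median was larger than that of the 5 autosomes together in 6 of 6 lists, by 64.5 to 231.5 bp (exact sign-flip permutation test, p = 0.25 for each factor). Among single chromosomes X ranked 1, 1 and 2 of 6 in the EGL-43 lists and 3, 2 and 1 in the FOS-1 lists. Chromosome V was wider in EGL-43 list 3 (1248 bp) and FOS-1 list 1 (1582.5 bp), and IV in FOS-1 list 2 (1447 bp). At an FDR under 0.001 the FOS-1 difference was 67.3 bp (p = 0.75 in the same permutation test) and the EGL-43 difference 235 bp.

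The difference in X width between the factors rested on the lists numbered 3. FOS-1 list 3 had the largest median X width and EGL-43 list 3 the smallest. EGL-43 minus FOS-1 was -328 bp in the mean of medians (exact permutation test, p = 0.5). Without replicate 3, which leaves out both of these lists, it was 20.3 bp. X held none of the 8 peaks over 15 kb, 6 in FOS-1 list 1 and 2 in FOS-1 list 3, all of them autosomal. The widest region on X was a FOS-1 region of 13686 bp at chrX:7077163-7090848, a single peak of list 1 at the 98.0th percentile of the authors' scores. The widest EGL-43 region, 11889 bp at chrX:10358507-10370395, was a single peak of list 2 at percentile 26.9. Neither of these widest regions recurred in another list of either factor.

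The authors' score of a peak has no stated scale, so it was used only as a percentile within its list. Mean percentiles of X peaks were 56.3, 47.9 and 46.7 in the EGL-43 lists against 48.5, 50.6 and 50.9 for autosomal peaks. X was thus the highest of the 6 chromosomes in EGL-43 list 1 and the lowest in lists 2 and 3. The mean difference was 0.31 ± 6.55 percentile points (SD, n = 3; exact sign-flip permutation test, p = 1), and without replicate 1 it was -3.45.

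FOS-1 X peaks stood at 47.8, 49.7 and 50.1 against 50.5, 50.1 and 50.04, a difference of -1.01 ± 1.49 (SD, n = 3; exact sign-flip permutation test, p = 0.5). Among each list's highest-scoring 10% of peaks, X held 30 of 109, 20 of 108 and 12 of 92 for EGL-43. These are 27.5%, 18.5% and 13.04%, where X had 19.6%, 18.9% and 19.4% of all peaks. Among the EGL-43 lists only list 1 placed more of its top peaks on X than of all its peaks. For FOS-1 the counts were 20 of 108, 22 of 106 and 11 of 84, or 18.5%, 20.8% and 13.1%, against 18.6%, 20.4% and 17.8% of all peaks.

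X peaks were also ranked by the authors' FDR. The share of X peaks below their list's median FDR was 45.9%, 42.6% and 39.8% for EGL-43 and 38.9%, 42.3% and 39.9% for FOS-1. It was lower than on the autosomes in 6 of 6 lists, with differences of -6.69 ± 4.93 percentage points for EGL-43 and -5.38 ± 1.85 for FOS-1 (SD, n = 3 each; exact sign-flip permutation test, p = 0.25 each). FDRs are heavily tied, and the median FDR on X equalled the autosomal one in EGL-43 lists 1 and 2 and FOS-1 lists 2 and 3. An FDR under 0.001 was reached by 59.2% ± 5.3 of EGL-43 X peaks against 66.1% ± 9.2 on the autosomes, lower in each list. For FOS-1 it was reached by 57.1%, 51.6% and 89.2% of X peaks against 65.0%, 56.0% and 89.0%.

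Recurrence between replicate lists was counted next. EGL-43 had a peak in 1 list in 351 of its 445 X regions, in 2 lists in 67 and in 3 lists in 27. The 94 with a peak in 2 or more lists were 21.1%, against 16.6% of EGL-43 regions over all chromosomes and 15.6% on the autosomes. X had the highest share of the 6 chromosomes, the autosomes running from 12.7% on V to 19.0% on III. The excess over the autosomes was 5.47 percentage points, and without replicate 1 it was 0.903. It was 2.04 at an FDR under 0.001 and 3.89 with peaks trimmed by 2 bp at each end. Regions in 3 of 3 lists were 6.07% on X, close to the background of 5.25%, and chromosome III was higher at 7.34%.

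For FOS-1, 469 of the 510 X regions had a peak in 1 list, 37 in 2 and 4 in 3. The 41 in 2 or more lists were 8.04%, against a background of 8.12% over all chromosomes. The 4 in 3 lists were 0.784%, against 0.521%. FOS-1 recurrence on X was thus near the level of the genome. Regions in 1 list came from all lists: 127, 129 and 95 from EGL-43 lists 1 to 3, and 165, 178 and 126 from the FOS-1 lists.

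Counted by peaks, 41.7%, 36.8% and 46.0% of EGL-43 X peaks were overlapped by a peak of another EGL-43 list, against 29.8%, 28.2% and 37.4% on the autosomes. X ranked first of the 6 chromosomes in each of the 3 lists. The difference was 9.71 ± 1.95 percentage points (SD, n = 3; exact sign-flip permutation test, p = 0.25). Within a factor the 3 values are not independent, since an overlap between peaks of different lists counts in both lists. It rested on pairs that include list 1: without replicate 1 it was 1.65 points, and without replicate 2 or 3 it was 8.81 or 8.56. At an FDR under 0.001 it was 5.61. EGL-43 peaks also covered more of X than of the autosomes, 1.90% ± 0.38 against 1.46% ± 0.20 (SD, n = 3), and the part of this coverage in the recurrence was not tested.

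For FOS-1 the X values lay among the autosomal ones. Its X peaks were met by another FOS-1 list in 16.7%, 16.4% and 14.9% of cases against 17.95%, 16.9% and 13.01% on the autosomes, a difference of 0.02 ± 1.64 percentage points (SD, n = 3; exact sign-flip permutation test, p = 1). The excess on X was larger for EGL-43 than for FOS-1 in each pair of lists, by 9.69 percentage points in the mean (exact permutation test of 3 lists against 3, p = 0.1, the smallest possible). Without replicate 1 that order turned, with an excess of 1.65 points for EGL-43 and 2.30 for FOS-1. The permutation test took all lists as independent. It left out the overlaps counted in more than 1 list and the control shared by lists of equal number.

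**Figure D4:**
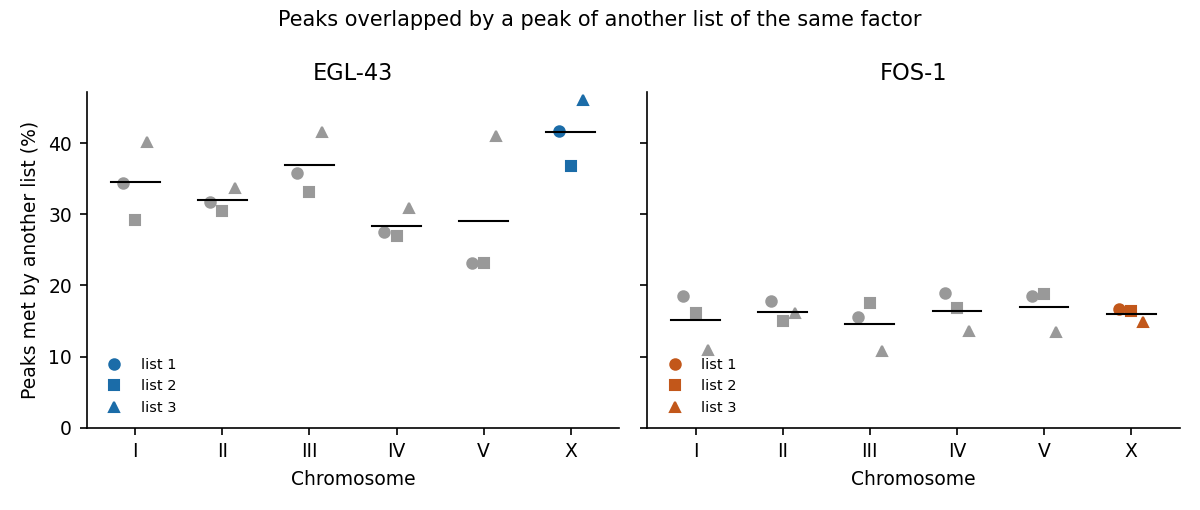
Percent of a list's peaks on each chromosome that are overlapped by 1 bp or more by a peak of another list of the same factor, for EGL-43 (left) and FOS-1 (right). Points are lists, bars are means of 3 lists and X is coloured. EGL-43 on X averages 41.5%, above each autosome's mean, while FOS-1 on X averages 16.0% and lies among the autosomes.

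Recurring X regions were wider, as merging alone makes them. Median widths for EGL-43 on X were 1335 bp for regions in 1 list, 2422 bp in 2 lists and 4460 bp in 3 lists. The autosomal medians were 1114.5, 2123 and 3309 bp. In single peaks, which merging does not lengthen, the same order held in each EGL-43 list on X: medians rose from 1335 to 1592 and 2151.5 bp in list 1, from 1472 to 1550 and 1879 bp in list 2, and from 1133 to 1217.5 and 1557 bp in list 3. Peaks of regions in 3 lists also ranked higher by score than peaks of regions in 1 list, at 59.4 against 54.0, 58.4 against 43.8 and 58.7 against 41.6 in EGL-43 lists 1 to 3. Neither order was particular to X. Autosomal medians rose from 1112 to 1459 and 2002 bp in list 1, from 1225 to 1435 and 1751.5 bp in list 2, and from 995.5 to 1396.5 and 1675 bp in list 3. Autosomal scores were 61.1 against 44.7, 53.8 against 49.7 and 66.8 against 45.5. Wider peaks meet others more readily, and the part of width here was not tested.

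For FOS-1 the score did not order X peaks by recurrence. Peaks of regions in 2 lists had mean percentiles of 47.0, 48.4 and 56.8 in lists 1 to 3, and peaks of regions in 1 list had 48.3, 49.9 and 49.8. Peaks of regions in 3 lists, 5, 4 and 4 in number, had 37.4, 50.3 and 30.7. No order held over the lists.

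Overlap in base pairs was given by the Jaccard index, the bases in both lists over the bases in either. On X the 3 pairs of EGL-43 lists had indices of 0.111 for lists 1 and 2, 0.133 for lists 1 and 3, and 0.0936 for lists 2 and 3. The autosomal indices were 0.0808, 0.114 and 0.0957. Both pairs with list 1 were higher on X than on any autosome, and the pair without it was not. The mean difference of X over autosomes was 0.0157, and without replicate 1 it was -0.00207.

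FOS-1 pairs overlapped little on X, at 0.0229, 0.0201 and 0.0225 for lists 1 and 2, 1 and 3, and 2 and 3. Every EGL-43 pair lay above every FOS-1 pair. The autosomal FOS-1 mean of 0.0404 ± 0.0274 (SD over 3 pairs, which share lists) was higher than the X mean of 0.0218 ± 0.0015, but without peaks over 15 kb, none of which is on X, the difference was 0.000487 in the other direction.

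**Figure D5:**
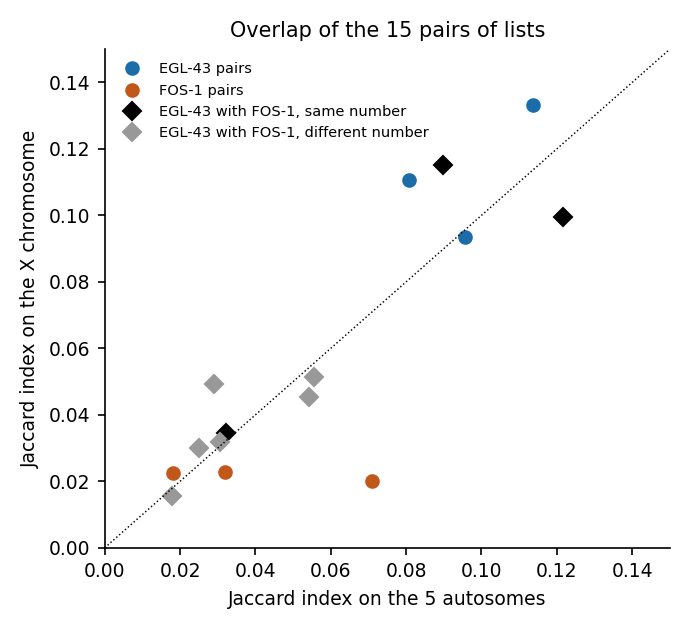
Jaccard index of peak bases on X (vertical axis) against the index on the 5 autosomes (horizontal axis) for the 15 pairs of lists, with equality dotted. Both EGL-43 pairs that include list 1 lie above the line, FOS-1 pairs stay near 0.02 on X, and 1 FOS-1 pair lies far to the right of it.

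Between the factors, lists of equal number, which share a control, had X indices of 0.115, 0.0997 and 0.0346 for numbers 1 to 3. Where the numbers differed, the 6 pairs of the factors averaged 0.0373 ± 0.0139 (SD, lists recur among them) and ran from 0.0156 to 0.0515. Numbers 1 and 2 stood above every one of these pairs, and number 3 lay among them. On the autosomes the indices were 0.0898, 0.122 and 0.0323 for numbers 1 to 3, with a mean of 0.0354 where the numbers differed. Numbers 1 and 2 again stood above every pair of different number, but number 2 was the highest there and number 1 on X. Peaks with the same start and end on X numbered 10 over the 3 same-number pairs, 13 over the 6 pairs of different number, 15 over the EGL-43 pairs and 0 over the FOS-1 pairs.

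Of the 445 EGL-43 regions on X, 161 (36.2%) overlapped a FOS-1 region by 1 bp or more, against 33.1% over all chromosomes and a range of 30.1% to 34.2% over the autosomes. Of the 510 FOS-1 regions, 171 (33.5%) overlapped an EGL-43 region, against 31.2% over all chromosomes. Both shares were a few points above the background. Both were below the autosomal share without replicate 1, with differences of -1.05 points for EGL-43 and -1.20 points for FOS-1. With all peaks these differences were 3.75 and 2.88 points, and at an FDR under 0.001 they were 0.468 and -0.300.

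Recurring regions were counted in the same way. Among EGL-43 regions in 2 or more lists, 56 of 94 (59.6%) on X overlapped a FOS-1 region, against 61.9% on the autosomes. Among those in 3 lists, 19 of 27 (70.4%) did, against 71.8%. For FOS-1, 23 of 41 (56.1%) in 2 or more lists overlapped an EGL-43 region, against 65.5% on the autosomes, where the lowest chromosome was V at 57.4%. All 4 FOS-1 regions in 3 lists did on X, and 7 of 10 on the autosomes. At chrX:3101375-3104139, among these 4, the overlap was 1 base, where an EGL-43 list 2 peak ended. Wider regions meet others more readily, and the part of width in these shares was not tested.

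When the 6 lists were merged, X held 779 regions. Of these 567 (72.8%) had a peak in 1 list, against 76.9% on the autosomes, and 140, 41, 25, 3 and 3 had a peak in 2 to 6 lists. Of the 3513 autosomal regions 37 had a peak in 5 lists and 6 in 6 lists, so that X had proportionally fewer regions in 5 lists and more in 6, on counts of 3 each. Only EGL-43 lists contributed to 284, only FOS-1 lists to 339, and both factors to 156 (20.03%, against 17.96% on the autosomes). Of the 92 regions made of exactly 1 EGL-43 and 1 FOS-1 list, 60 (65.2%) came from lists of the same number, against 72.1% on the autosomes.

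The few regions that recurred most are described individually, with 1-based coordinates as in the deposited lists. The submitters' processing notes name build ce10 without tying it to the lists, and no genome or annotation of that build was used here, so the regions are not assigned to genes and no sequence is shown. The score percentile of a region in a list is that of its highest-scoring peak there.

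All 6 lists had a peak in 3 merged regions of X. The first, chrX:3656343-3664015, spanned 7673 bp, and its percentiles were 96.8, 48.1 and 86.3 in EGL-43 lists 1 to 3 and 32.9, 83.9 and 53.2 in the FOS-1 lists. No base of it was covered by all 6 lists. EGL-43 list 1 and FOS-1 list 1 each had a peak there from 3656343 to 3657686, identical at both ends. FOS-1 list 2 had a peak from 3657449, where the EGL-43 list 3 peak ended, to 3660528, where the FOS-1 list 3 peak began.

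The second, chrX:6737400-6747670, spanned 10271 bp, and only 1 base of it was covered by all 6 lists. EGL-43 ranked high in it, with percentiles of 88.9, 77.4 and 95.1, and FOS-1 lists gave 98.3, 10.2 and 17.2. By these highest-scoring peaks the factors were far apart in lists 2 and 3 and alike in list 1. Its FDRs reached 1.53e-22 in EGL-43 list 1, 5.01e-13 in list 2 and 2.93e-16 in list 3. FOS-1 lists shared 544 bp within the narrower FOS-1 region, chrX:6739723-6742920. The FOS-1 list 1 peak in that narrower region was at percentile 31.8, and the 98.3 came from a separate peak outside it, from 6737400 to 6739033.

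The third, chrX:12727296-12730195, was compact at 2900 bp and ranked low, and again no base was covered by all 6 lists. Its percentiles were 4.10, 50.6 and 71.6 in the EGL-43 lists and 7.03, 67.8 and 14.3 in the FOS-1 lists. Both lists numbered 1, which share a control, gave it their lowest ranks.

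A further 3 regions had a peak in 5 lists, and in each the missing list was FOS-1 list 3. That list had the fewest X peaks, 148, but covered 2.17% of X, the most of the FOS-1 lists. At chrX:12509944-12517726 the EGL-43 percentiles were 92.7, 72.3 and 10.5 and the FOS-1 percentiles 90.1 and 35.5. At chrX:15190085-15196053 they were 88.9, 90.8 and 83.8 for EGL-43 and 21.8 and 98.7 for FOS-1. At chrX:16736280-16741714 they were 97.7, 72.3 and 61.2 for EGL-43 and 78.4 and 61.3 for FOS-1. The second of these was the most even for EGL-43, and its 5 lists shared 1039 bp. In the first the 5 lists shared no base, and in the third they shared 1 base.

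The 27 EGL-43 regions in 3 lists had mean percentiles from 37.1 to 93.3, with a median of 66.8, and widths from 1306 to 10271 bp. In 2 of them no base was common to the 3 lists, and the median over the 27 was 1047 common bases. The highest was chrX:16710321-16713429, at percentiles 99.9, 85.3 and 94.5, a mean of 93.3 ± 7.4 (SD, n = 3). The 3 EGL-43 peaks ended at the same base and shared 1641 bp. FOS-1 list 1 also had a peak there, ending at that same base, but at percentile 1.17.

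Next came chrX:15190085-15196053 at 87.9 ± 3.6 and chrX:6737400-6747670 at 87.1 ± 9.0, both described above. The region chrX:11474185-11480727 followed at 81.3 ± 13.9, with percentiles of 86.0, 65.7 and 92.2, and FOS-1 list 1 reached it with a 376 bp peak at percentile 5.76. The region chrX:15668087-15671084 stood at 77.4 ± 7.7, with percentiles of 84.5, 78.6 and 69.3, and all 3 EGL-43 peaks and a FOS-1 list 3 peak started at its first base. The sixth, chrX:3656343-3660311, stood at 77.1 ± 25.6. List 2 was the low one there, at 48.1.

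FOS-1 lists had no peak in 8 of the 27 EGL-43 regions, a peak of 1 list in 13, of 2 lists in 4 and of 3 lists in 2. The 8 without a FOS-1 peak were 29.6%, near the 28.2% of autosomal regions (29 of 103), where 38 had a peak of 1 list, 30 of 2 and 6 of 3. The highest of the 8 was chrX:5726397-5728350, with EGL-43 percentiles of 82.0, 59.7 and 77.4, a mean of 73.0 ± 11.8 (SD, n = 3). The EGL-43 peaks there were 964, 1582 and 1150 bp wide and shared 592 bp, and their FDRs were 5.85e-05, 4.25e-07 and 6.31e-07.

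All 4 FOS-1 regions in 3 lists are given, whereas the EGL-43 regions above were the highest of 27, so their ranks are not comparable. The region chrX:3101375-3104139 had FOS-1 percentiles of 96.7, 39.3 and 38.2, a mean of 58.1 ± 33.5 (SD, n = 3). Its lists met at 1 base only: the list 1 peak ended at 3103294, where the peaks of lists 2 and 3 began. All 3 of its FDRs, 0.00208, 0.00505 and 0.00751, were above 0.001. The region chrX:3656343-3662789 had 32.9, 83.9 and 53.2, a mean of 56.7 ± 25.7, with no base in common. The regions chrX:12727401-12730195 and chrX:6739723-6742920 had means of 29.7 ± 33.2 and 19.7 ± 11.04. Only the last of the 4 had more than 1 base common to the 3 FOS-1 lists. Of the 4, 3 lay in merged regions where all 6 lists had a peak.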

How the data were processed

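The deposited data used here were 6 peak lists and 2 combined region lists from 9 NanoDam libraries sequenced on a nanopore instrument. Per the labels, each list compares a tagged library with the control library of its number, so peaks were called per replicate. Beside its position, a peak carries the authors' score, of unstated scale, and an FDR, below 0.01 throughout the deposited lists. The submitters' processing notes name minimap2, SAMtools and build ce10 without roles, and the peak caller is not given in the sources used here. Signal tracks were not used here. Scores, 11 of them negative in FOS-1 list 3, served only as percentiles within a list. The authors' combined lists hold no score.

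Chromosome lengths were the largest peak end in any list, 17716538 bp for X. Peaks were placed by their midpoint. Regions were merged where peaks overlapped or touched, and an overlap needed 1 bp. The 2 mitochondrial peaks were left out. Sign-flip and 3 against 3 permutation tests were exact and two-sided, with lists as replicates, so p-values measure the spread between these lists only. Lists of a number are paired through their shared control, which the labels name for both. Python 3.11.15, numpy 2.4.6 and scipy 1.17.1 were used, and 30 of 30 checks on simulated data passed.

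The members, lists and comparisons were chosen with earlier results of these data known. The densities by chromosome part and the share of peaks met by another list were added after seeing the values, and so were their alternatives. The regions named are the 4 FOS-1 regions in 3 lists, the 6 EGL-43 regions in 3 lists with the highest mean score percentile, those in 5 or 6 lists, the widest of each factor, the highest EGL-43 region without a FOS-1 peak, and the fullest and emptiest bins. Gene assignment, a dopamine gene list, sequences and motifs were not analysed, because no ce10 genome or annotation was used here. Alternatives were an FDR under 0.001, leaving out each replicate number, no peaks over 15 kb, peaks trimmed by 2 bp, autosomes weighted equally, other overlap, support and centre rules, the FDR in place of the score, and a replicate block.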

Additional observations from a re-analysis of the deposited data

How the results depend on the processing

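Of 156 alternative values for 24 results, 134 kept their direction and their call or stayed within the spread, 19 reversed and 3 moved by more than the spread. For Jaccard indices the spread was the SD over pairs of lists. For shares of regions it came from a 95% binomial interval that treats X regions as independent, which they are not. Where a permutation test was run the call could not change, so only direction counted. The EGL-43 density ratio was counted as kept although it fell from 1.11 to 1.00 at an FDR under 0.001. Also counted as kept was the EGL-43 excess of regions in 2 or more lists, which fell from 5.47 to 2.04 percentage points there. Some alternatives could not differ. EGL-43 lists held no peaks over 15 kb to leave out, and the replicate block alters the p-value but not the difference. The deficit of X peaks in the middle of the chromosome, its density ratios and the greater X width kept their direction under every alternative run. For EGL-43 the X share of regions in 2 or more lists exceeded the autosomal share by 5.47 percentage points, by 0.999 for 3 of 3 lists, and by 0.903 (without replicate 1) to 4.35 with a replicate left out. Its score difference of 0.31 percentile points became -6.69 percentage points when counted as the share of peaks below the list's median FDR, which is another statistic as well as another ranking. It ran from -3.45 to 2.56 with a replicate left out, and its Jaccard difference ran from -0.00207 to 0.0298.

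For FOS-1 the difference in regions in 2 or more lists, -0.095, was 0.0117 without peaks over 15 kb, 0.632 with trimmed peaks, 0.325 for 3 of 3 lists, and -0.401 to 1.19 with a replicate left out. Its Jaccard difference was 0.000487 without peaks over 15 kb and -0.0509 to 0.00426 with a replicate left out. Its share of peaks met by another list differed by -0.598 at an FDR under 0.001 and by -0.822 to 2.30 with a replicate left out. Overlap with the other factor, as X minus autosomes, ran from -1.05 to 2.92 for EGL-43 and from -1.20 to 6.16 for FOS-1 with a replicate left out. Where the regions of both factors had to be in 2 or more lists, the EGL-43 value was -2.36 and the FOS-1 value 1.17, and at an FDR under 0.001 it was -0.300 for FOS-1. The causes were not tested.

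Between the factors, EGL-43 minus FOS-1 in X density was -0.0564 peaks per Mb at an FDR under 0.001 and 0.31 to 1.35 with a replicate left out. With a replicate left out it ran from -0.286 to 0.171 percentage points in coverage and from -564.5 to 20.3 bp in median width. With the replicate block, which pairs lists by their shared control, the differences were the same, at 0.734 peaks per Mb (exact permutation p = 0.5), -0.119 percentage points (p = 1 by the same permutation) and -328 bp (p = 0.75 by the same permutation), and no call changed. With 3 lists per factor and unknown depth, no test here could pass 0.05, and p-values at their smallest possible value say nothing about stability.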
